A study of Rattus norvegicus with 93 samples.

Results

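The genes that attach ubiquitin to proteins, choose the proteins to be marked and take ubiquitin off again were followed in the bone marrow of rats given topotecan, oxaliplatin or both. Members were the genes whose symbol begins with Ube2, Usp, Fbxo, Fbxl, Fbxw or Rnf, with a number after the last 5 of these. The rule found 119 of the 7810 genes that have a probe set with 1 annotated symbol: 24 Ube2 genes, 29 Usp genes, 24 F-box genes and 42 Rnf genes. They are read by 167 probe sets, and for the 38 members with several probe sets the one of highest mean over all 93 arrays stands for the gene.

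Ubiquitin is passed from an activating enzyme (E1) to a conjugating enzyme (E2, most of the Ube2 genes) and is then placed on a protein that a ligase (E3) has bound. F-box proteins are the exchangeable receptors that bring a protein to a cullin-based ligase, and many Rnf proteins are ligases by themselves, through a RING domain that holds the loaded E2. Usp enzymes cut ubiquitin off, and the balance of the opposed activities times cell division, DNA repair, interferon signalling and the clearing of the cell contents as a red cell matures. Usp6nl carries a matching symbol but is a GTPase-activating protein rather than a deubiquitinase, and Rnf11l2 and Rnf113a2 are copies of other genes whose probes may read the relative as well.

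Topotecan is a topoisomerase I inhibitor and oxaliplatin a platinum compound that binds DNA. Male Sprague-Dawley rats, 8 weeks old, received an infusion of 30 min followed by another of the same length, and left femur marrow was taken 1, 6 or 24 h after dosing. The treatments, each named by what was infused first and then second, were topotecan/D5W and D5W/topotecan (topotecan alone), oxaliplatin/NaCl and NaCl/oxaliplatin (oxaliplatin alone), and topotecan/oxaliplatin and oxaliplatin/topotecan (the combinations), with topotecan at 4.7 mg/kg in 0.9% NaCl and oxaliplatin at 15 mg/kg in D5W (5% dextrose in water). Their vehicle groups of the same order were NaCl/D5W, for topotecan/D5W, NaCl/oxaliplatin and topotecan/oxaliplatin, and D5W/NaCl for the other treatments. Each group held 4 rats at each time, with 3 in topotecan/D5W at 24 h, oxaliplatin/NaCl at 6 h and D5W/NaCl at 24 h. A drug infused first had also been in the rat longer when marrow was taken, so order and time since the drug cannot be told apart.

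One array was measured for each rat, and values are log2 signals. The array medians ran from 8.79 to 9.30, and pairs of arrays correlated at 0.831 to 0.995 over all probe sets. The mean log2 level of a member ran from 5.71 (Rnf182) to 13.28 (Rnf10), with a median of 9.82 against 9.08 over all probe sets. Levels of different genes are not comparable on arrays, so only differences of 1 gene between groups are read below. A gene was called where the adjusted p of the limma fit was under 0.01, a second count adds a fold above 2, and every change is a log2 difference, treated minus vehicle. Marrow is a mixture of cells, and fewer cells of a type and less RNA per cell cannot be told apart in these data. Erythroid markers (8 of 10 listed genes measured) averaged 12.96 in NaCl/D5W at 24 h. Of the granulocyte precursor markers 1 of 6 was measured (Fcnb), of the B cell precursor markers 2 of 8 (Cd79b and Ebf1), and of the osteoblast and stroma markers 8 of 8. Skeletal muscle genes were high on 3 arrays, 2 of oxaliplatin/NaCl at 24 h and 1 of topotecan/oxaliplatin at 6 h (mean of 9 genes up to 9.25 on the first 2 and 10.17 on the other, against a median of 6.11 over arrays), and results that move without them are given both ways.

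At 24 h the 3 E2 genes of mitosis and of the Fanconi DNA repair pathway were lower in every treatment. Ube2c and Ube2s build ubiquitin chains for the anaphase-promoting complex (APC/C), the ligase that drives the exit from mitosis, and Ube2t is the E2 that marks FANCD2 in the repair of DNA crosslinks. Fbxo5 encodes an inhibitor of the APC/C that lets cells enter division. Fbxo5 was lower in all 6 treatments as well. The promoters of Ube2t, Ube2s and Fbxo5 are shown because the results on cell division turn on these genes (RefSeq, GRCr8, 250 bases before to 50 bases after the annotated start). Ube2c was not found in the promoter table. Capitals mark CCAAT, the site class read by the factor NF-Y, and TTTGAA, the core of the cell cycle homology region, on either strand, so that ATTGG and TTCAAA are the same motifs on the other strand.
Ube2t promoter, chr13:48954916-48955215, plus strand: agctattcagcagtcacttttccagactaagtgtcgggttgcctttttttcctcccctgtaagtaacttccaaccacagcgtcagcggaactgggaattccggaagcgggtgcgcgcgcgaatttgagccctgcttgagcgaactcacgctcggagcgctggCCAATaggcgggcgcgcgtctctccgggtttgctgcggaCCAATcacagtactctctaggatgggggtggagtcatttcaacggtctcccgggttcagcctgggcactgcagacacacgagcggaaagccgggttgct
Ube2s promoter, chr1:78057409-78057708, plus strand: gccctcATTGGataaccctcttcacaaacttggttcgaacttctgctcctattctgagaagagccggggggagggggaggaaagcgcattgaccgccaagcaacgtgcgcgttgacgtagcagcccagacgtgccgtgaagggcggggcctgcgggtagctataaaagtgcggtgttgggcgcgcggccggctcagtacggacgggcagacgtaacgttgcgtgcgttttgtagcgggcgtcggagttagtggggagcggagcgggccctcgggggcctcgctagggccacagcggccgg
Fbxo5 promoter, chr1:44607732-44608031, minus strand: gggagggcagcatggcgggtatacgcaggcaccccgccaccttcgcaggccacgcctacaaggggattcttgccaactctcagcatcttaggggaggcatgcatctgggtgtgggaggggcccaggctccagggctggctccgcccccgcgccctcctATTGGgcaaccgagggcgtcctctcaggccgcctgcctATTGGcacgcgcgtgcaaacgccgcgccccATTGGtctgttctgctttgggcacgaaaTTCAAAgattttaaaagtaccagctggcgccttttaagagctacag
Ube2t held CCAAT 88 and 49 bases before its start. Fbxo5 held CCAAT on the other strand 92, 54 and 24 bases before its start and TTTGAA on the other strand 5 bases after it. Ube2s held a single CCAAT on the other strand, 244 bases before its start. Of all 27457 promoters in the table, 37.7% held CCAAT, 11.5% held 2 or more copies, and 18.1% held TTTGAA. Among the 101 members in the table, 31 held CCAAT and 12 held TTTGAA, 30.7% and 11.9% of them. A match describes the letters and is not a bound site, and CCAAT was added after the sequences had been seen.

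The counts of called members by treatment and time give the frame for the single genes. At 1 h, 16 members were higher and 31 lower in topotecan/D5W, where 35.2% of all probe sets were called (9.18% higher, 26.0% lower). In D5W/topotecan 9 were higher and 35 lower (27.1% of all probe sets, 7.67% higher and 19.5% lower). The counts were 14 and 40 in topotecan/oxaliplatin (42.7% of all probe sets, 9.77% higher and 32.9% lower) and 9 and 46 in oxaliplatin/topotecan (34.8% of all probe sets, 7.21% higher and 27.6% lower). With oxaliplatin alone 1 member was called in oxaliplatin/NaCl (1.23% of all probe sets, 0.575% higher and 0.654% lower) and 0 in NaCl/oxaliplatin (0.160% of all probe sets, 0.136% higher and 0.0239% lower), where 18 members had an unadjusted p under 0.05. The median member change at 1 h was -0.07, -0.11, -0.13 and -0.23 in topotecan/D5W, D5W/topotecan, topotecan/oxaliplatin and oxaliplatin/topotecan, against -0.09, -0.04, -0.14 and -0.13 over all probe sets.

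At 6 h the calls in the 4 topotecan treatments stayed close to the background of all probe sets. The counts of higher and of lower members, with the share of all probe sets called and its higher and lower parts, were 10 and 32 in topotecan/D5W (40.7%; 15.1% and 25.6%), 14 and 29 in D5W/topotecan (34.5%; 14.1% and 20.4%), 17 and 33 in topotecan/oxaliplatin (44.6%; 17.0% and 27.6%) and 20 and 34 in oxaliplatin/topotecan (41.8%; 14.2% and 27.5%). Oxaliplatin alone had 1 and 7 in oxaliplatin/NaCl (11.0%; 3.78% and 7.25%) and 2 and 6 in NaCl/oxaliplatin (15.2%; 5.54% and 9.69%). Both counts with oxaliplatin alone at 6 h depended on the fit and on single rats. With a block for the lower or higher animal numbers of a group (the animal set) each was 14 in place of 8, and with all groups in 1 fit oxaliplatin/NaCl had 15. Oxaliplatin/NaCl had 4 without its animal 39, 5 without its animal 45 and 5 without D5W/NaCl animal 16, and NaCl/oxaliplatin had 14 without NaCl/D5W animal 9. By 24 h all 6 treatments had many calls, with more members lower than higher in each. They were 13 and 41 in topotecan/D5W (33.4%; 16.1% and 17.3%), 12 and 39 in D5W/topotecan (36.4%; 18.1% and 18.3%), 13 and 41 in oxaliplatin/NaCl (45.9%; 19.6% and 26.4%) and 23 and 44 in NaCl/oxaliplatin (55.1%; 24.9% and 30.2%). The combinations had 23 and 52 in topotecan/oxaliplatin (61.1%; 25.9% and 35.2%) and 18 and 47 in oxaliplatin/topotecan (55.1%; 21.8% and 33.3%). The median member change at 24 h lay between -0.23 and -0.10 over the treatments, and that of all probe sets between -0.11 and 0.03.

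With a fold above 2 as well, 3 members were called in topotecan/D5W (4.05% of all probe sets), 11 in oxaliplatin/topotecan (7.78%), 10 in D5W/topotecan (5.28%), 5 in topotecan/oxaliplatin (6.42%), 0 in oxaliplatin/NaCl (0.295%) and 0 in NaCl/oxaliplatin (0.0958%) at 1 h. At 6 h the counts were 3 in topotecan/D5W (6.10%), 3 in oxaliplatin/topotecan (8.46%), 2 in D5W/topotecan (5.71%), 4 in topotecan/oxaliplatin (7.76%), 0 in oxaliplatin/NaCl (1.40%) and 0 in NaCl/oxaliplatin (1.17%), and at 24 h 12 in topotecan/D5W (7.36%), 15 in oxaliplatin/topotecan (16.6%), 10 in D5W/topotecan (9.83%), 18 in topotecan/oxaliplatin (17.8%), 7 in oxaliplatin/NaCl (9.34%) and 7 in NaCl/oxaliplatin (10.0%).

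**Figure D1:**
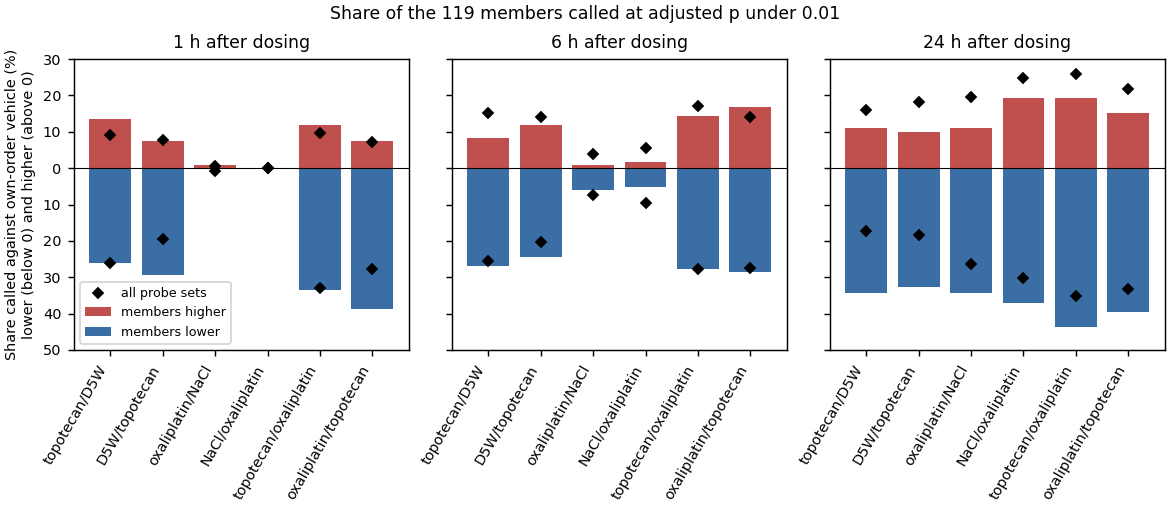
Share of the 119 members called higher (above 0) and lower (below 0) against the vehicle group of the same order, in percent, for 6 treatments at 1, 6 and 24 h; diamonds give the share of all probe sets called in the same direction. Oxaliplatin alone had 1 and 0 calls at 1 h, and the bars below 0 reach past the diamonds in all 6 treatments at 24 h.

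Of the 119 members, 27 were lower in all 6 treatments at 24 h (12.2% of all probe sets) and 4 were higher in all 6 (9.75%). A further 34 were called in none of the 6 at 24 h (24.1%), and 0 were called higher in one treatment and lower in another. The 6 treatments share 2 vehicle groups, so these are not independent repeats. Over all times, 5 members (Rnf170, Rnf182, Rnf4, Rnf6 and Usp4) were called in none of the 18 comparisons with vehicle. The share of all probe sets called in none of the 18 was not counted. Markers of other cell types also changed at 24 h. Of the 8 osteoblast and stroma markers, 7 were higher in topotecan/D5W and 3 in D5W/topotecan, 4 in oxaliplatin/NaCl and 6 in NaCl/oxaliplatin, and 5 and 4 in the combinations, with 0 lower in any. The mean of the list ran from 11.38 to 12.50 over the treated rats, against 10.32 to 10.98 over the vehicle rats. Fcnb, which encodes ficolin B of granulocyte precursors, averaged 13.67 in topotecan/D5W, 13.06 in D5W/topotecan, 11.74 in oxaliplatin/NaCl, 11.29 in NaCl/oxaliplatin, 9.76 in topotecan/oxaliplatin and 9.41 in oxaliplatin/topotecan, against 13.82 in NaCl/D5W and 13.97 in D5W/NaCl. It was lower in all treatments but topotecan/D5W. The part of these cell types in the members' changes was not tested.

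Ube2t had the deepest fall among the E2 genes. Its log2 level at 24 h was 8.06, 8.07, 8.24 and 7.91 in the topotecan/oxaliplatin rats and 8.28, 7.94, 7.95 and 7.52 in the oxaliplatin/topotecan rats. It was 8.71, 8.51, 8.59 and 8.64 in NaCl/oxaliplatin rats, against 10.27, 10.13, 10.19 and 10.20 in NaCl/D5W rats and 10.02, 10.08 and 10.55 in D5W/NaCl rats. The topotecan/oxaliplatin rats lay below the NaCl/oxaliplatin rats and these below the vehicle rats, with no overlap, and no oxaliplatin/topotecan rat reached its vehicle. Here and below, 6 changes in a row are those of topotecan alone (topotecan/D5W, then D5W/topotecan), of oxaliplatin alone (oxaliplatin/NaCl, then NaCl/oxaliplatin) and of the combinations (topotecan/oxaliplatin, then oxaliplatin/topotecan). For Ube2t they were -1.08, -1.44, -1.40, -1.59, -2.13 and -2.30, with adjusted p of at most 1.63e-09. Against the single agents at 24 h, topotecan/oxaliplatin differed by -1.05 from topotecan/D5W (SE 0.12, adjusted p = 1.31e-08) and by -0.54 from NaCl/oxaliplatin (SE 0.11, adjusted p = 0.000282). Oxaliplatin/topotecan differed by -0.89 from oxaliplatin/NaCl and by -0.85 from D5W/topotecan (adjusted p = 4.54e-06 and 4.55e-06).

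Ube2c, which starts chains on APC/C substrates, followed the same order of levels. Its log2 level at 24 h was 11.40, 10.99, 10.95 and 10.73 in topotecan/oxaliplatin rats and 11.92, 12.15, 12.02 and 11.78 in NaCl/oxaliplatin rats, against 13.03, 12.86, 12.90 and 12.97 in NaCl/D5W rats. The topotecan/oxaliplatin rats were the lowest, with no overlap with either other group. The change was -1.92 (SE 0.19, adjusted p = 3.65e-11) in topotecan/oxaliplatin and -1.94 in oxaliplatin/topotecan, against -0.93, -1.19, -1.22 and -0.97 in the 4 single-agent treatments in the order used above. It was lower in each combination than in each of its single agents, with differences of -0.99 and -0.95 for topotecan/oxaliplatin and of -0.71 and -0.75 for oxaliplatin/topotecan.

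Ube2s, which lengthens the chains that Ube2c starts, had 12.32, 12.17, 12.06 and 12.04 in topotecan/oxaliplatin rats against 13.37, 13.17, 13.22 and 13.30 in NaCl/D5W rats at 24 h. The groups did not overlap, and the change was -1.12 (SE 0.10, adjusted p = 3.15e-12). Over the 6 treatments its changes were -0.81, -0.78, -0.51, -0.68, -1.12 and -1.02, all called.

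Fbxo5, whose promoter is printed above, had 8.16, 8.33, 8.12 and 7.90 in topotecan/oxaliplatin rats against 10.05, 9.85, 10.03 and 9.97 in NaCl/D5W rats at 24 h, again with no overlap. Its changes over the 6 treatments were -1.20, -1.52, -1.15, -1.57, -1.85 and -1.88, all called. Usp1, the deubiquitinase that removes the mark Ube2t places on FANCD2, had 9.79, 9.67, 9.97 and 9.76 in topotecan/oxaliplatin rats against 11.10, 11.04, 10.99 and 11.03 in NaCl/D5W rats, a change of -1.24 (SE 0.11, adjusted p = 4.86e-13). The E2 for this mark and the enzyme that removes it were both lower, with changes of -2.13 and -1.24 in topotecan/oxaliplatin.

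None of Ube2c, Ube2s and Ube2t was called at 1 h in any treatment, and the topotecan and oxaliplatin treatments stood apart in the calls at 6 h. At that time Ube2t had 9.16, 8.76, 8.96 and 9.38 in topotecan/D5W rats and 10.32, 10.09, 10.14 and 10.29 in NaCl/oxaliplatin rats, against 10.41, 10.59, 10.47 and 10.38 in NaCl/D5W rats. The changes were -1.40 (SE 0.11, adjusted p = 2.64e-13) in topotecan/D5W and -0.25 (SE 0.11, adjusted p = 0.0855) in NaCl/oxaliplatin, of which the topotecan change passed the test. No NaCl/oxaliplatin rat overlapped with vehicle, and the difference between the drugs was not tested at 6 h. Ube2t was also lower at 6 h in D5W/topotecan (-1.10), topotecan/oxaliplatin (-1.31) and oxaliplatin/topotecan (-0.85), and it had -0.30 with oxaliplatin/NaCl, not called. Fbxo5 had -1.02 and -0.77 in topotecan/D5W and D5W/topotecan, both called, and -0.31 and -0.24 in oxaliplatin/NaCl and NaCl/oxaliplatin, neither called. Between 1 and 24 h the fall of Ube2t against vehicle grew in all 6 treatments by the test of that difference (-1.26, -1.52, -1.52, -1.59, -2.27 and -2.47).

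**Figure D2:**
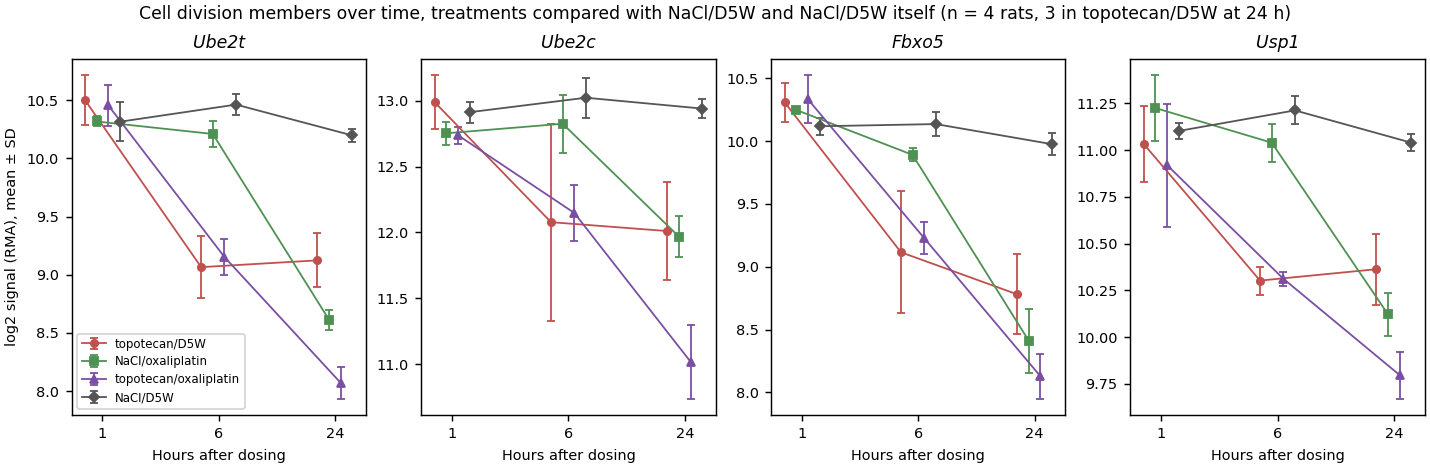
Log2 signal (vertical axis, mean ± SD) of Ube2t, Ube2c, Fbxo5 and Usp1 at 1, 6 and 24 h (horizontal axis) in topotecan/D5W, NaCl/oxaliplatin and topotecan/oxaliplatin rats and in their vehicle NaCl/D5W. Ube2t was 8.07 ± 0.13 in topotecan/oxaliplatin at 24 h against 10.20 ± 0.06 in NaCl/D5W (SD, n = 4 each), and at 6 h the topotecan groups lay below vehicle.

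Markers of dividing cells moved with these genes. The mean over 10 such markers (Top2a, Mki67 and others, all 10 measured) at 24 h was 9.23 in topotecan/oxaliplatin and 9.20 in oxaliplatin/topotecan, 10.43 and 10.08 in topotecan/D5W and D5W/topotecan, and 10.33 and 10.24 in oxaliplatin/NaCl and NaCl/oxaliplatin, against 11.49 in NaCl/D5W and 11.45 in D5W/NaCl. At 6 h it was 10.28 in topotecan/D5W and 11.35 in NaCl/oxaliplatin against 11.71 in NaCl/D5W. Their part in the fall of the E2 genes was not tested. At 1 h the markers had 10.75 in D5W/topotecan against 11.56 in D5W/NaCl, while Ube2t had a change of 0.08 and Ube2c of -0.43 in that comparison, neither called.

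The wider list of cell cycle members, 7 of 10 measured, had 4 lower and 1 higher in topotecan/oxaliplatin at 24 h, with a median change of -0.69 against -0.10 over all probe sets. There 35.2% of all probe sets were lower and 25.9% higher. The higher one was Fbxo4, an F-box protein known for marking cyclin D1 (0.80, against vehicle). Usp37, which has been tied to cyclin A, was lower in 3 treatments at 24 h, namely topotecan/D5W and the combinations (-0.69 and -0.58 in the combinations). Fbxw7, receptor for cyclin E and Myc, and Fbxw11, receptor for beta-catenin and IkB, had 0.28 and 0.21 in topotecan/oxaliplatin, neither called, although both had been lower at 1 h.

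Members of the DNA damage response, 16 of 21 measured, fell more often than they rose at 24 h: 8 lower and 1 higher in topotecan/oxaliplatin, 5 and 1 in topotecan/D5W, and 7 and 2 in NaCl/oxaliplatin. Lower calls were also the more frequent over all probe sets. The lower and higher shares were 35.2% and 25.9%, 17.3% and 16.1%, and 30.2% and 24.9% in the same order. Usp7, which stabilises MDM2 and p53, had 9.24, 8.99, 8.77 and 9.17 in topotecan/oxaliplatin rats and 9.99, 9.81, 9.97 and 9.66 in NaCl/oxaliplatin rats, against 10.80, 10.59, 10.62 and 10.84 in NaCl/D5W rats at 24 h. The combination was lowest, with a change of -1.67 (SE 0.10, adjusted p = 9.15e-17) against vehicle and of -0.81 (SE 0.10, adjusted p = 2.80e-07) against NaCl/oxaliplatin. Over the 6 treatments Usp7 changed by -1.32, -1.27, -0.71, -0.86, -1.67 and -1.28, all called.

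Usp10, a deubiquitinase of p53, differed by drug. It had -0.28, not called, in topotecan/D5W and -0.38, called, in D5W/topotecan, -0.79 and -0.83 in oxaliplatin/NaCl and NaCl/oxaliplatin, and -0.91 and -1.01 in the combinations, all 4 called. Topotecan/D5W minus NaCl/oxaliplatin was 0.56 (SE 0.09, adjusted p = 1.46e-05), and D5W/topotecan minus oxaliplatin/NaCl was 0.41 (SE 0.10, adjusted p = 0.0039). Ube2v2, partner of Ube2n in building the chains that signal at stalled replication forks, had -0.27, -0.49, -0.83, -0.78, -0.59 and -0.94, called in all but topotecan/D5W. Its topotecan/D5W minus NaCl/oxaliplatin difference was 0.51 (SE 0.10, adjusted p = 0.000176), and that of D5W/topotecan minus oxaliplatin/NaCl was 0.34 (SE 0.13, adjusted p = 0.0743), not called. Rnf168, a ligase for histone H2A at DNA breaks, was lower in all 6 treatments (-0.46, -0.68, -0.56, -0.40, -0.77 and -0.86). Rnf169, which binds the mark Rnf168 makes and competes with repair factors there, rose: it changed by 0.42, 0.48, 0.70, 0.49, 0.44 and 0.53 at 6 h, all called, and by 0.32, 0.49, 0.57, 0.46, 0.52 and 0.71 at 24 h, called in all but topotecan/D5W. The other member of the list called higher at 24 h was Usp11, a deubiquitinase tied to repair by recombination (0.26 in topotecan/D5W and 0.35 in NaCl/oxaliplatin). The list medians were -0.34 in topotecan/oxaliplatin and -0.42 in oxaliplatin/topotecan, against -0.10 and -0.11 over all probe sets.

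Several members outside these lists also fell in all 6 treatments at 24 h. Usp15, a deubiquitinase of TGF-beta signalling, had 9.97, 9.48, 9.61 and 9.78 in topotecan/oxaliplatin rats against 11.33, 11.10, 11.08 and 11.16 in NaCl/D5W rats. These groups did not overlap, and the changes over the 6 treatments were -1.53, -1.56, -1.04, -0.91, -1.45 and -1.27. Fbxo3, an F-box protein, changed by -1.29, -1.27, -1.26, -1.26, -1.45 and -1.41. Usp30, a deubiquitinase of the outer mitochondrial membrane that opposes mitophagy, changed by -0.70, -0.71, -0.89, -1.04, -1.08 and -0.95, and Rnf187 by -0.99, -0.87, -0.96, -1.16, -1.24 and -1.02. Both were lower already at 6 h in all 6 treatments, oxaliplatin alone included (Usp30 -0.64 and -0.65, Rnf187 -0.65 and -0.60 in oxaliplatin/NaCl and NaCl/oxaliplatin).

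Some of the members linked to red cell maturation (8 of 9 measured), Rnf123, Ube2o and Rnf10 among them, set topotecan and oxaliplatin apart at 24 h. Rnf123, the ligase subunit KPC1 that marks the cell cycle inhibitor p27, had 8.84, 8.68, 8.30 and 8.43 in D5W/topotecan rats and 9.09, 9.29, 9.45 and 9.19 in oxaliplatin/NaCl rats, against 10.59, 11.04 and 10.23 in D5W/NaCl rats. The D5W/topotecan rats were lowest and the vehicle rats highest, with no overlap among the groups. The changes over the 6 treatments were -2.03, -2.06, -1.36, -1.31, -1.80 and -1.31, and the difference between the drugs was -0.71 (SE 0.16, adjusted p = 0.000534) for topotecan/D5W minus NaCl/oxaliplatin and -0.69 (SE 0.13, adjusted p = 0.000315) for D5W/topotecan minus oxaliplatin/NaCl.

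Ube2o, a large E2 that also acts as a ligase and clears ribosomal proteins from reticulocytes, had 12.03, 12.23 and 11.89 in topotecan/D5W rats and 12.72, 13.10, 12.99 and 12.70 in NaCl/oxaliplatin rats, against 13.14, 13.11, 13.04 and 13.04 in NaCl/D5W rats. The topotecan/D5W rats lay below both other groups, which overlapped. Ube2o was lower with topotecan/D5W (-1.03, SE 0.13, adjusted p = 2.26e-08), while NaCl/oxaliplatin had -0.20 (SE 0.12, adjusted p = 0.132). The difference between these treatments was -0.83 (SE 0.13, adjusted p = 4.80e-06), and that of the other order -0.62 (SE 0.15, adjusted p = 0.00281). Rnf10, the brightest member, had -0.06 and -0.01 in topotecan/D5W and D5W/topotecan, neither called, and was higher after oxaliplatin alone (0.61 and 0.66 in oxaliplatin/NaCl and NaCl/oxaliplatin). Its differences between the drugs were -0.72 and -0.63, both called.

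Ube2h, an E2 of the CTLH ligase in red cell precursors, was lower in all 6 treatments at 24 h (-0.88, -0.59, -0.35, -0.32, -0.64 and -0.44), as were Fbxo7, which binds a proteasome regulator (-0.93, -0.88, -0.78, -0.88, -0.90 and -0.87), and Fbxo34 (-1.16, -1.07, -0.77, -0.93, -1.27 and -1.18). Fbxo9 had -0.26, -0.27, 0.18, 0.15, -0.54 and -0.30, called in topotecan/D5W and topotecan/oxaliplatin. Usp4, also on the list, was not called in any treatment. In all, 6, 5, 4, 4, 6 and 4 of the 8 were lower in the 6 treatments, with Rnf10 the 1 higher in oxaliplatin/NaCl, NaCl/oxaliplatin and oxaliplatin/topotecan. Lower calls made up 17.3%, 18.3%, 26.4%, 30.2%, 35.2% and 33.3% of all probe sets in the same order. Erythroid markers (8 of 10 measured) were on average lower than vehicle at 24 h too. Their mean was 10.99, 10.54, 10.98, 11.02, 10.31 and 10.41 in the treatments in the same order, against 12.96 in NaCl/D5W and 12.83 in D5W/NaCl. The list medians were -0.91, -0.66, -0.24, -0.26, -0.60 and -0.37 in the same order. The median changes of the markers were -2.27, -2.92, -1.84, -1.89, -2.83 and -2.49. Both medians were lower after topotecan alone than after oxaliplatin alone. The marker means of topotecan/D5W, oxaliplatin/NaCl and NaCl/oxaliplatin lay close together. Single markers differed between the drugs as well. In topotecan/D5W minus NaCl/oxaliplatin 4 of the 8 were lower and 1 higher (median difference -0.28), and in D5W/topotecan minus oxaliplatin/NaCl 5 were lower and 1 higher (median -0.91). The part of erythroid cells in these changes was not tested. The GATA core AGATAA was held by 11.3% of all promoters and by 3 of 101 members, Fbxw5, Ube2l3 and Usp2, in this window.

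Topotecan against oxaliplatin gave 20 called members at 24 h in topotecan/D5W minus NaCl/oxaliplatin (8 higher, 12 lower; 17.9% of all probe sets called) and 10 in D5W/topotecan minus oxaliplatin/NaCl (3 higher, 7 lower; 8.21%). The second count was 4 without the 2 muscle-rich oxaliplatin/NaCl arrays, 4 without the D5W/topotecan rat of animal number 95 and 6 without the oxaliplatin/NaCl rat of animal number 47. Fcnb of granulocyte precursors differed in the same contrasts by 2.38 and 1.31, both called. Rnf144a, a RING-in-between-RING ligase, was the largest difference in the first, at -0.87 (SE 0.12, adjusted p = 1.47e-06). It had -0.03 and 0.17 after topotecan alone, neither called, and was higher than vehicle after oxaliplatin alone (0.84 and 0.84) and in the combinations (0.46 and 0.49). Its relative Rnf144b, known as a p53 target in human cells, was higher in topotecan/D5W (0.66), NaCl/oxaliplatin (0.81) and both combinations (0.88 and 0.73).

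Interferon-linked members gave the largest rises among the 119. Usp18 removes the ubiquitin-like protein ISG15 from its targets and damps interferon signalling, Ube2l6 is the E2 that attaches ISG15, and Rnf213 and Rnf114 are ligases induced by interferon. At 24 h Usp18 had 12.18, 10.96, 11.70 and 8.62 in topotecan/oxaliplatin rats and 8.82, 8.25, 8.03 and 8.89 in NaCl/oxaliplatin rats, against 7.43, 7.45, 7.45 and 7.30 in NaCl/D5W rats. Every topotecan/oxaliplatin rat lay above every vehicle rat, and the rats of that group spread over more than 3 log2 units. The change was 3.46 (SE 0.45, adjusted p = 1.38e-08) against vehicle and 2.37 (SE 0.45, adjusted p = 0.000124) against NaCl/oxaliplatin. Both SE pool the spread over all groups of the fit and do not measure the wide spread of this group alone. Oxaliplatin/topotecan rats had 9.41, 12.18, 10.34 and 9.07, a change of 2.28 (SE 0.62, adjusted p = 0.00157). Among the single agents Usp18 was called only in topotecan/D5W (1.95), and had 1.48, 1.83 and 1.09 in D5W/topotecan, oxaliplatin/NaCl and NaCl/oxaliplatin.

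Rnf213 rose in all 6 treatments at 24 h. Its levels were 11.40, 10.48, 11.31 and 9.42 in topotecan/oxaliplatin rats and 9.17, 8.65, 8.89 and 9.22 in NaCl/oxaliplatin rats, against 7.87, 7.70, 7.68 and 7.65 in NaCl/D5W rats. The changes over the 6 treatments were 1.91, 1.57, 1.63, 1.26, 2.93 and 2.13, with an excess of topotecan/oxaliplatin over NaCl/oxaliplatin of 1.67 (SE 0.30, adjusted p = 6.75e-05). The 3 groups whose rats are given did not overlap. At 1 h Rnf213 was called in 0 treatments (topotecan/D5W -0.17, topotecan/oxaliplatin -0.29), and the change at 24 h exceeded that at 1 h by 3.22 in topotecan/oxaliplatin and 2.08 in topotecan/D5W.

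Rnf114 had 11.12, 10.57, 10.99 and 10.14 in topotecan/oxaliplatin rats against 9.58, 9.64, 9.45 and 9.46 in NaCl/D5W rats, with no overlap and a change of 1.17 (SE 0.13, adjusted p = 4.90e-10). Ube2l6 had 10.48, 9.64, 10.53 and 8.88 in topotecan/oxaliplatin rats and 8.75, 8.42, 8.43 and 8.63 in NaCl/oxaliplatin rats, against 9.15, 9.19, 9.19 and 9.20 in NaCl/D5W rats. Its combination rats overlapped with the vehicle rats, and the change was 0.70 (SE 0.29, adjusted p = 0.0289), not called, while the combination exceeded NaCl/oxaliplatin by 1.32 (SE 0.29, adjusted p = 0.000616) and topotecan/D5W by 1.08 (SE 0.31, adjusted p = 0.00467). NaCl/oxaliplatin alone had -0.63 against vehicle, not called. Usp25 went the other way, with -0.75, -0.83, -0.50, -0.72, -0.49 and -0.64 over the 6 treatments, and Rnf125, a ligase for the RNA sensor RIG-I, had 0.19, -0.01, 0.36, 0.49, 0.32 and 0.27, none called. Of the 6 measured interferon-linked members (7 listed), 3, 1, 2, 2, 3 and 3 were higher in the 6 treatments. Higher calls made up 16.1%, 18.1%, 19.6%, 24.9%, 25.9% and 21.8% of all probe sets in the same order.

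**Figure D3:**
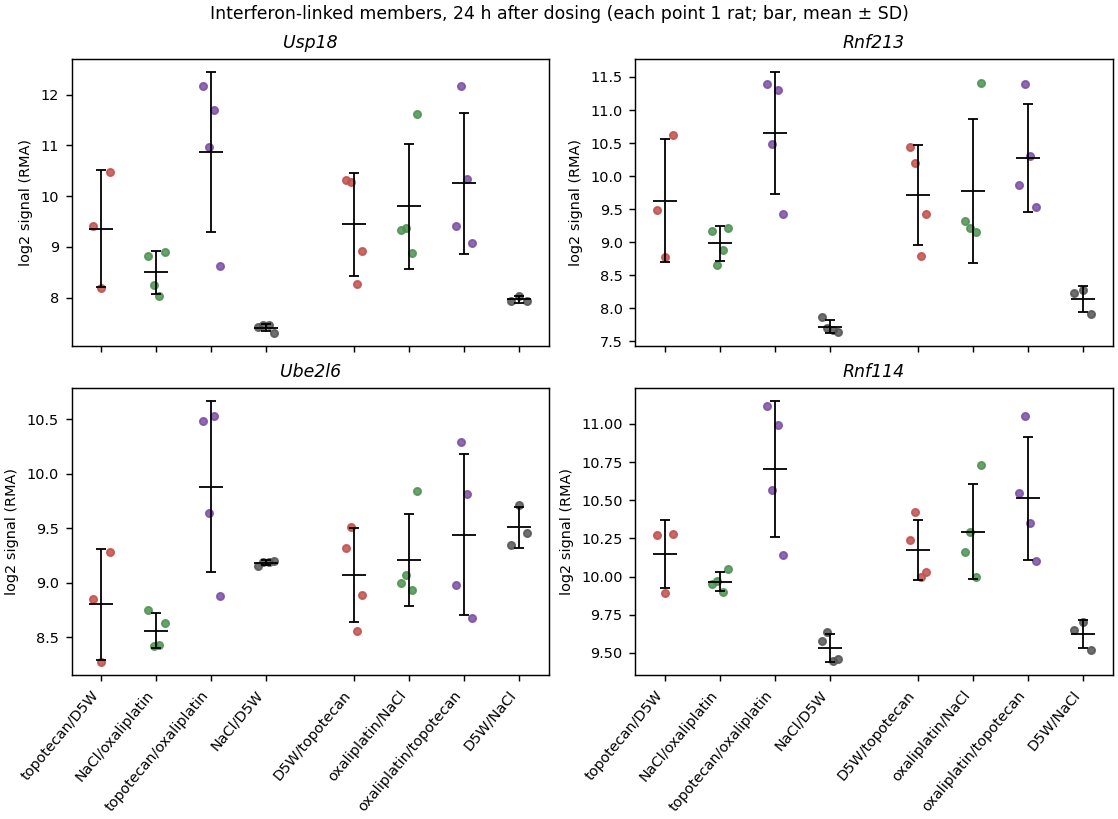
Log2 signal (vertical axis) of Usp18, Rnf213, Ube2l6 and Rnf114 in single rats (points) at 24 h, with mean ± SD (bars), by treatment, each vehicle group at the right of its treatments. Usp18 reached 10.86 ± 1.58 in topotecan/oxaliplatin against 7.41 ± 0.07 in NaCl/D5W (SD, n = 4 each), with a wide spread between treated rats and a narrow one between vehicle rats.

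The mean of 8 interferon response markers (all 8 measured) at 24 h was 11.38 in topotecan/oxaliplatin (10.12 to 12.17 over the rats), 10.96 in oxaliplatin/topotecan, 10.19 and 10.28 in topotecan/D5W and D5W/topotecan and 10.36 and 9.73 in oxaliplatin/NaCl and NaCl/oxaliplatin, against 8.57 in NaCl/D5W and 8.82 in D5W/NaCl. At 6 h Usp18 was called in topotecan/oxaliplatin (1.59, SE 0.45, adjusted p = 0.00277) and oxaliplatin/topotecan (2.12, SE 0.57, adjusted p = 0.00203), and without the muscle-rich array the change in topotecan/oxaliplatin was 1.34 and no longer called. The core of the interferon-stimulated response element, GAAA repeated after a spacer of 2 bases, was searched on both strands of the same promoter windows and was held by 3.77% of all promoters and by 3 of 101 members (Fbxo27, Fbxo7 and Rnf20). The promoters of Rnf213, Ube2l6, Rnf114, Usp25 and Rnf125 did not hold these letters in this window, and Usp18 was not found in the promoter table.

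The combinations were set against their single agents at 24 h over all members. Topotecan/oxaliplatin differed from topotecan/D5W in 25 members (7 higher, 18 lower; 29.6% of all probe sets called) and from NaCl/oxaliplatin in 17 (6 higher, 11 lower; 15.9%). Oxaliplatin/topotecan differed from oxaliplatin/NaCl in 11 (2 higher, 9 lower; 5.93%) and from D5W/topotecan in 16 (2 higher, 14 lower; 16.8%). Ube2c, Ube2t and Rnf26 were lower in all 4 of these contrasts. Rnf26, a ligase of the endoplasmic reticulum, had -0.92 and -0.81 in the combinations and -0.36, -0.39, -0.07 and -0.21 in the single agents in the order used above. Fbxo33 was lower in 3 of the 4 (-0.69, -0.58 and -0.51). The count of 11 was 6 without the muscle-rich oxaliplatin/NaCl arrays and 5 to 9 without any 1 rat, the count of 25 was 15 without the topotecan/D5W rat of animal number 35, and the count of 17 was 26 with the animal set as a block. Fcnb was lower in all 4 contrasts too (-3.91, -1.53, -2.34 and -3.65 in the order given above), and its part in these counts was not tested.

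Fbxl5, the F-box protein that senses iron and marks the iron regulatory protein IRP2, was called higher in 5 of the 6 treatments at 24 h. It was also called higher at 6 h in the treatments that held topotecan. It had 11.86, 11.49, 11.32 and 11.83 in oxaliplatin/topotecan rats and 10.99, 10.86, 11.49 and 11.05 in oxaliplatin/NaCl rats, against 10.67, 10.52 and 10.80 in D5W/NaCl rats at 24 h. The oxaliplatin/topotecan rats lay above all vehicle rats and overlapped with the oxaliplatin/NaCl rats. The change was 0.96 (SE 0.15, adjusted p = 8.56e-07) in oxaliplatin/topotecan and exceeded that of oxaliplatin/NaCl by 0.53 (SE 0.14, adjusted p = 0.00961). At 1 h Fbxl5 had been lower in the same treatment (-0.50, adjusted p = 0.00346), and the 24 h change minus the 1 h change was 1.46. In the list of iron, hypoxia and nutrient members (3 of 6 measured), Usp33, a deubiquitinase tied to hypoxia signalling, fell in all 6 treatments (-0.76, -0.72, -0.44, -0.73, -0.97 and -0.62). The 4 members higher in all 6 treatments at 24 h were Rnf213, Rnf14, Fbxo6 and Ube2q1, singled out after their values were seen. Fbxo6, which binds sugar-bearing glycoproteins, changed by 0.36, 0.41, 0.37, 0.42, 0.58 and 0.51, Rnf14, a RING-in-between-RING ligase, by 0.33, 0.42, 0.45, 0.44, 0.42 and 0.47, and the E2 gene Ube2q1 by 0.26, 0.31, 0.32, 0.38, 0.25 and 0.23.

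The 1 h changes had another shape. With topotecan, 19 members were lower in all 4 treatments that held it (11.2% of all probe sets) and 6 were higher in all 4 (3.21%), namely Rnf151, Rnf181, Rnf215, Rnf227, Ube2q1 and Usp2. Usp34, which keeps the scaffold protein axin from degradation, had 9.29, 9.36, 9.22 and 9.11 in topotecan/D5W rats against 10.40, 10.51, 10.49 and 10.30 in NaCl/D5W rats, and 9.38, 9.44, 9.46 and 9.18 in D5W/topotecan rats against 10.26, 10.28, 10.46 and 10.50 in D5W/NaCl rats. The treated rats lay below all vehicle rats in both orders, with changes of -1.18 (SE 0.07, adjusted p = 9.46e-17) and -1.01 (SE 0.08, adjusted p = 2.33e-12). At 24 h it had 0.01 and 0.06, neither called. Also lower at 1 h were Usp24, with -1.16 and -0.78 in topotecan/D5W and D5W/topotecan, Usp9x, a large X-linked deubiquitinase, with -0.80 and -0.79, and Fbxw7, with -0.88 and -1.10. With oxaliplatin alone the same genes had between -0.12 and -0.55, none called.

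Rnf151 is among the members that rose at 1 h. It had 10.23, 10.15, 10.45 and 10.61 in topotecan/D5W rats against 9.72, 9.79, 9.54 and 9.80 in NaCl/D5W rats, and 10.52, 10.53, 10.62 and 10.67 in D5W/topotecan rats against 9.63, 9.69, 9.72 and 9.69 in D5W/NaCl rats. The groups did not overlap, and the changes were 0.65 (SE 0.09, adjusted p = 8.67e-08) and 0.90 (SE 0.08, adjusted p = 4.28e-12). By 24 h Rnf151 was lower in oxaliplatin/NaCl, NaCl/oxaliplatin and the combinations (-0.59, -0.48, -0.69 and -0.71). Rnf227 had 8.19, 8.59, 8.64 and 8.66 in D5W/topotecan rats and 7.80, 7.71, 8.10 and 7.96 in oxaliplatin/NaCl rats, against 7.29, 7.32, 7.09 and 7.22 in D5W/NaCl rats. The 3 groups did not overlap, and Rnf227 was the only member called with oxaliplatin alone at 1 h (0.66, SE 0.14, adjusted p = 0.00543). That call was lost with the mean of its probe sets, without the dimmest probe sets and without any 1 of 7 of the 8 rats. Rnf227 was lower than vehicle in all 6 treatments at 24 h (-0.62, -0.71, -0.83, -0.73, -0.43 and -0.77).

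The changes at 1 h went lower with the length of the gene. Spans from the first to the last base of a gene (RefSeq, GRCr8) were found for all 119 members, from 1.28 to 278 kb, with a median of 33.8 kb against 24.3 kb over 7787 genes. In D5W/topotecan the median change was 0.11 in the 29 members under 15 kb, -0.04 in the 38 of 15 to 40 kb, -0.40 in the 28 of 40 to 80 kb and -0.65 in the 24 over 80 kb, with 0, 3, 17 and 15 of them called lower and 7, 2, 0 and 0 higher. In topotecan/D5W the medians were 0.19, 0.06, -0.10 and -0.38, with 2, 7, 9 and 13 called lower and 11, 3, 2 and 0 higher. Of all genes in the 4 bins, 1.65%, 8.39%, 38.6% and 52.8% were called lower in D5W/topotecan and 17.7%, 23.7%, 32.5% and 56.2% in topotecan/D5W, with 16.5%, 4.86%, 0.540% and 0.218% and 16.3%, 8.27%, 3.55% and 1.23% called higher. Over all genes the medians in the same bins were 0.16, -0.02, -0.29 and -0.49 in D5W/topotecan and 0.04, -0.06, -0.20 and -0.46 in topotecan/D5W. The rank correlation of span with change across the 119 members was -0.71 in D5W/topotecan (-0.62 over 7787 genes), -0.52 in topotecan/D5W (-0.41), -0.58 in topotecan/oxaliplatin (-0.46) and -0.75 in oxaliplatin/topotecan (-0.60). It was -0.39 in oxaliplatin/NaCl (-0.35) and -0.24 in NaCl/oxaliplatin (-0.25). These are descriptions across genes of the same arrays, which are not independent replicates, and the use of span was added after the values had been seen. At 24 h the members' rank correlation lay between 0.04 and 0.09 over the 6 treatments.

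**Figure D4:**
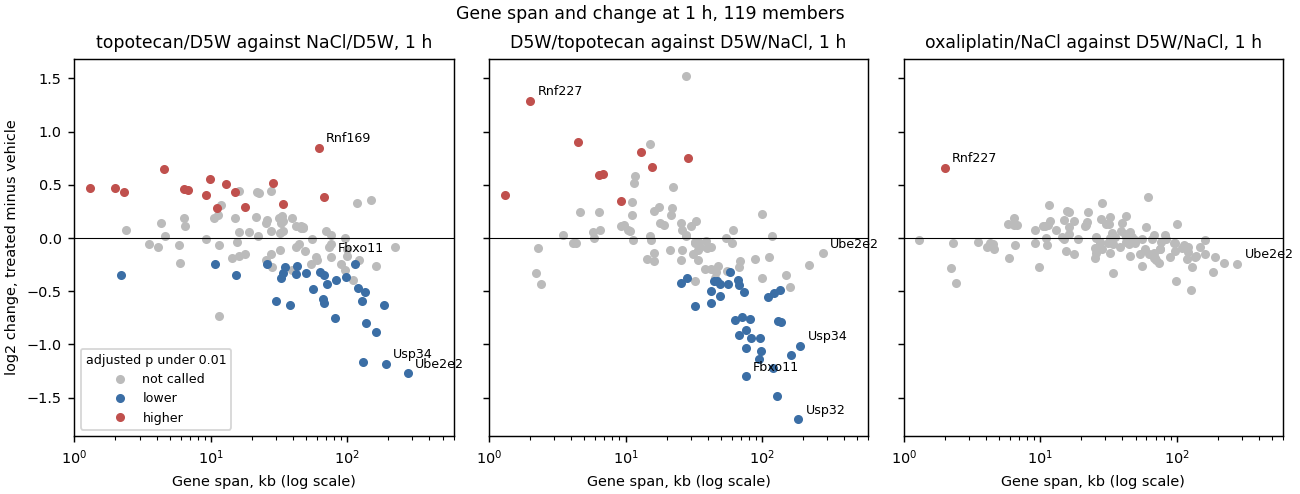
Log2 change at 1 h (vertical axis, treated minus vehicle) of the 119 members against gene span in kb (horizontal axis, log scale) in topotecan/D5W, D5W/topotecan and oxaliplatin/NaCl, coloured by call. In D5W/topotecan the 24 members over 80 kb had a median of -0.65 and the 29 under 15 kb one of 0.11.

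The order of infusion also set members apart at 1 h. The change in topotecan/D5W minus that in D5W/topotecan was called for 19 members (14 positive, less lowered or more raised with topotecan first, and 5 negative; 12.2% of all probe sets called), and the same contrast of topotecan/oxaliplatin and oxaliplatin/topotecan for 15 (12 positive, 3 negative; 9.85%). For topotecan alone, 8 of the 28 members of 40 to 80 kb and 6 of the 24 over 80 kb were positive, and 0 of the 67 below 40 kb were. Over all genes of the same bins, 10.5% and 13.1% were positive, and 0.717% of those under 15 kb and 1.89% of those of 15 to 40 kb. The negative members were 2 of 29 under 15 kb, 2 of 38 of 15 to 40 kb, 0 of 28 and 1 of 24, where 12.5%, 8.22%, 3.86% and 9.00% of all genes were negative.

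Ube2h, with a span of 95.5 kb, had 10.34, 10.52, 10.70 and 10.39 in topotecan/D5W rats against 10.40, 10.39, 10.61 and 10.54 in NaCl/D5W rats, and 9.71, 9.55, 9.63 and 9.44 in D5W/topotecan rats against 10.53, 10.54, 10.91 and 10.89 in D5W/NaCl rats. Only the D5W/topotecan rats were low. The change was 0.00 (SE 0.11, adjusted p = 0.996) with topotecan first and -1.14 (SE 0.11, adjusted p = 2.96e-11) with topotecan second, and the difference of the changes was 1.14 (SE 0.15, adjusted p = 3.87e-08).

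Fbxo11, the F-box receptor for BCL6 (75.9 kb), had 9.32, 9.44, 9.27 and 9.30 in topotecan/D5W rats against 9.77, 9.53, 9.51 and 9.25 in NaCl/D5W rats, and 8.16, 7.68, 8.38 and 8.39 in D5W/topotecan rats against 9.40, 9.47, 9.51 and 9.42 in D5W/NaCl rats. The D5W/topotecan rats lay below the other 3 groups. The change was -0.18 with topotecan first, not called, and -1.30 with topotecan second, and the difference was 1.12 (SE 0.21, adjusted p = 5.48e-05). Usp3, a deubiquitinase of histone H2A (75.9 kb), had 9.32, 9.48, 9.31 and 9.57 in topotecan/D5W rats against 9.43, 9.58, 9.43 and 9.48 in NaCl/D5W rats, and 8.46, 8.45, 8.79 and 8.29 in D5W/topotecan rats against 9.48, 9.50, 9.55 and 9.59 in D5W/NaCl rats. Here too the D5W/topotecan rats alone were low, with a difference of the changes of 0.98 (SE 0.16, adjusted p = 4.05e-06). In the combinations the same difference was 1.25 for Usp3, 1.23 for Fbxo11, 0.99 for Rnf111, a ligase of SUMO-marked proteins, and 0.95 for Ube2h.

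Ube2e2, the member of longest span (278 kb), went the opposite way. It had 8.17, 8.20, 8.23 and 8.13 in topotecan/D5W rats against 9.64, 9.74, 9.12 and 9.32 in NaCl/D5W rats, and 8.99, 9.21, 8.97 and 9.09 in D5W/topotecan rats against 8.99, 9.26, 9.37 and 9.19 in D5W/NaCl rats. The topotecan/D5W rats were low, and the D5W/topotecan rats overlapped with vehicle. The change was -1.27 (SE 0.11, adjusted p = 3.95e-12) with topotecan first and -0.14 (SE 0.13, adjusted p = 0.427) with topotecan second, a difference of -1.14 (SE 0.17, adjusted p = 5.47e-07), and -1.02 in the combinations. By 6 h Ube2e2 was lower in all 6 treatments (-0.95, -0.87, -0.68, -0.64, -1.15 and -1.41). Ube2n, the E2 of chains that signal in DNA damage and inflammation, was also lower in topotecan/D5W (-0.59, with 0.11 in D5W/topotecan and a difference of -0.69, SE 0.16, adjusted p = 0.00106), as was the Rad6 homologue Ube2a (-0.24 in topotecan/D5W and 0.07 in D5W/topotecan).

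**Figure D5:**
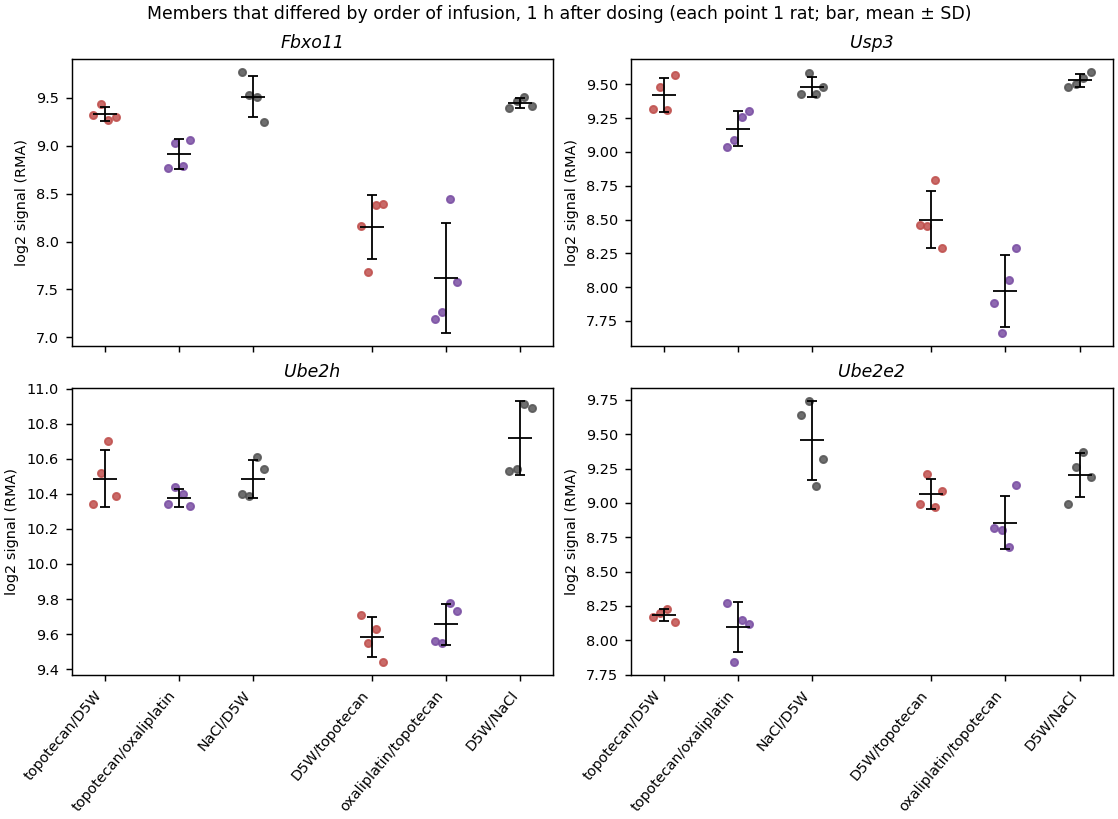
Log2 signal (vertical axis) at 1 h in single rats (points) with mean ± SD (bars) for Fbxo11, Usp3, Ube2h and Ube2e2, in treated groups and, at the right of them, the vehicle group of the same order. Ube2h was 10.49 ± 0.16 in topotecan/D5W against 10.49 ± 0.11 in NaCl/D5W, and 9.58 ± 0.11 in D5W/topotecan against 10.72 ± 0.21 in D5W/NaCl (SD, n = 4 each), whereas Ube2e2 was low in the topotecan-first groups.

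Topotecan set against oxaliplatin at 1 h gave 42 called members in topotecan/D5W minus NaCl/oxaliplatin (15 higher, 27 lower; 32.8% of all probe sets called) and 39 in D5W/topotecan minus oxaliplatin/NaCl (9 higher, 30 lower; 19.0%). Rnf169 was the largest rise in the first (0.97, SE 0.10, adjusted p = 1.10e-10). It was higher than vehicle at 1 h with topotecan first (0.85 in topotecan/D5W, 0.61 in topotecan/oxaliplatin) and had 0.08 and -0.18 with topotecan second, with a difference of 0.79 (SE 0.15, adjusted p = 6.35e-05) in the combinations.

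How many of the early falls were called again at 24 h varied with the treatment. Of the 31 members lower at 1 h in topotecan/D5W, 9 were also lower at 24 h, 21 were not called and 1 was higher. Of the 35 in D5W/topotecan the numbers were 10, 24 and 1, of the 40 in topotecan/oxaliplatin 22, 14 and 4, and of the 46 in oxaliplatin/topotecan 16, 27 and 3. Of all probe sets lower at 1 h, 20.9% were also lower at 24 h in topotecan/D5W, 25.0% in D5W/topotecan, 51.8% in topotecan/oxaliplatin and 41.2% in oxaliplatin/topotecan. The change itself differed between 24 and 1 h in 49 members in topotecan/D5W (33.6% of all probe sets called), 44 in D5W/topotecan (31.3%), 26 in oxaliplatin/NaCl (26.5%), 55 in NaCl/oxaliplatin (43.0%), 64 in topotecan/oxaliplatin (46.8%) and 57 in oxaliplatin/topotecan (43.8%). Fbxo11 moved up most among the F-box genes, by 2.32 in oxaliplatin/topotecan, from a change of -1.83 at 1 h to one of 0.49 at 24 h. The 24 h change of Rnf123 minus its 1 h change was -1.88 in topotecan/D5W.

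By family, the Usp genes had the lowest median among the 4 at 1 h, -0.30 in topotecan/D5W and -0.43 in D5W/topotecan, with 13 and 14 of 29 lower and 2 and 1 higher. The Rnf genes had medians of 0.11 and 0.01, with 5 and 6 of 42 lower and 10 and 5 higher. Over all probe sets, 26.0% and 19.5% were lower and 9.18% and 7.67% higher in these treatments. These shares do not allow for gene span. Of all genes of 40 to 80 kb and over 80 kb, 38.6% and 52.8% were lower in D5W/topotecan. The part of span in the difference between families was not tested, and the 29 Usp genes include Usp6nl. At 24 h the Ube2 genes had 13 of 24 lower and 2 higher in topotecan/oxaliplatin (median -0.27), the Usp genes 17 of 29 lower and 3 higher (-0.39), the F-box genes 10 of 24 lower and 5 higher (-0.13) and the Rnf genes 12 of 42 lower and 13 higher (-0.05). In that comparison 35.2% of all probe sets were lower and 25.9% higher, and the F-box and Rnf genes lay near these shares. Among the E2 genes of ubiquitin-like proteins (Ube2f, Ube2l6 and Ube2m, 3 of 5 measured), 0 were called at 24 h in any treatment. Of all probe sets, 24.1% were called in no treatment at 24 h. Of the E2 genes of chain building and the Rad6 pathway (Ube2a, Ube2b, Ube2n and Ube2v2, 4 of 5 measured), 2 in topotecan/oxaliplatin and 3 in oxaliplatin/topotecan were called, all lower. The lower shares of all probe sets were 35.2% and 33.3% in these treatments. Of the Polycomb and chromatin members (Rnf2, Usp21, Usp3 and Rnf20, 4 of 10 measured), Rnf20, a ligase for histone H2B, was lower in oxaliplatin/NaCl and the combinations (-0.40, -0.53 and -0.52).

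The other genes of the pathway were taken from lists of the ubiquitin and E1 genes, the cullin core, the APC/C, further ligases and further deubiquitinases. At 24 h in topotecan/oxaliplatin, 5 of 12 ubiquitin and E1 genes were lower and 2 higher, 10 of 15 cullin core genes were lower and 0 higher, and 10 of 13 APC/C genes were lower and 0 higher. Of the further ligases 13 of 32 were lower and 4 higher, and of the further deubiquitinases 13 of 16 were lower and 1 higher. Over all probe sets of this comparison, 35.2% were lower and 25.9% higher. The ubiquitin and E1 genes and the further ligases lay nearest to that lower share. The list medians were -0.18, -0.33, -0.51, -0.16 and -0.48, against -0.10 over all probe sets. The single genes named next were picked by no set rule and do not stand for their lists. Isg15, the ubiquitin-like protein that Ube2l6 attaches and Usp18 removes, changed by 4.30, and Uba7, its E1, by 1.27, so in topotecan/oxaliplatin 3 of the 4 genes of this cycle were called, Ube2l6 being the one that was not. Cdc20, the activator of the APC/C, changed by -1.73, and Uhrf1, a ligase that reads hemimethylated DNA, by -2.56. Mdm2, the p53 ligase, changed by 1.95 at 1 h in topotecan/D5W and had 0.31 in topotecan/oxaliplatin at 24 h, not called, while its deubiquitinase Usp7 fell by that time (-1.67). Btrc, the paralogue of Fbxw11, changed by -1.92 where Fbxw11 had 0.21.

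Of the muscle-linked members Usp2 and Rnf115 were measured (2 of 8), and they went opposite ways at 1 h. Usp2 was higher in the 4 topotecan treatments (0.52 in topotecan/D5W, 0.75 in D5W/topotecan, 0.67 in topotecan/oxaliplatin and 0.68 in oxaliplatin/topotecan), and Rnf115 was lower in them (-0.35, -0.44, -0.43 and -0.70 in the same order). At 24 h Rnf115 was lower in topotecan/D5W, NaCl/oxaliplatin and both combinations (-0.24, -0.34, -0.21 and -0.29), and Usp2 was higher in NaCl/oxaliplatin (0.73) and topotecan/oxaliplatin (0.49). Without the 3 muscle-rich arrays the called members numbered 38 in place of 54 in oxaliplatin/NaCl at 24 h and 40 in place of 50 in topotecan/oxaliplatin at 6 h, and the change of Rnf213 in oxaliplatin/NaCl at 24 h was 2.14 in place of 1.63.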

How the data were processed

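RNA from the marrow of 93 rats was hybridised to Affymetrix arrays, 1 for each rat. The log2 values were made by the authors with RMA (background correction, quantile normalization, median polish) after 1 outlier array (oxaliplatin/NaCl, 6 h) had been left out, and the other 2 groups of 3 rats lost 1 sample each to RNA quality before hybridisation; the deposited table holds 12560 rows, and the methods name a filter of probe sets by agreement among probes (pvac). After removal of 28 control rows, 12532 probe sets were tested; 10002 had 1 symbol, 292 several and 2238 none in the platform annotation. Group means were fitted with limma 3.58.1 (R 4.3.3; lmFit, contrasts.fit, eBayes) in 2 fits as in the study, 1 for each infusion order, with Benjamini-Hochberg adjustment over all probe sets within a comparison; order contrasts used 1 fit of all groups. The scripts were tested on simulated data. Arrays carry no read depth, and precision is limited by the 3 or 4 rats of a group. The SE and p-values rest on the spread between rats, pooled over all groups of a fit and moderated over all probe sets (eBayes). They do not measure the spread of the compared groups alone.

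Named members were the up to 10 highest and lowest called members of each comparison whose rats do not overlap with vehicle, the members of the role lists, and the up to 5 largest in each direction of the other contrasts; a few others (such as Fbxo6, Rnf14, Ube2q1 and the members never called) were named after their values were seen. The members and lists were chosen with earlier results of these data known, and gene span and CCAAT were added after values or sequences had been seen. Alternatives were quantile normalization, leaving out the dimmest 25% of probe sets, a block for the animal set, the mean of all probe sets of a gene, leaving out muscle-rich arrays, leaving out each rat, and 1 fit of all groups. Promoters and spans were from RefSeq GRCr8. A search for the HPN tripeptide in the E2 proteins was not run.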

Additional observations from a re-analysis of the deposited data

Results flagged for a closer look

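Dixon's gap test over 67 groups of 4 rats whose values are given above marked 2, where chance marks about 1 in 20. The lowest D5W/topotecan rat of Rnf227 at 1 h had 8.19, away from the other rats of its group, and the lowest NaCl/D5W rat of Usp18 at 24 h had 7.30. Each lay on the same side of the group it is compared with as the other rats of its own group.

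The change with topotecan first differed from that with topotecan second at 1 h in 19 members for topotecan alone. Positive differences (topotecan/D5W minus D5W/topotecan) were 1.14 for Ube2h, 1.12 for Fbxo11, 1.08 for Usp32, 0.98 for Usp3 and 0.89 for Rnf111, and negative ones -1.14 for Ube2e2, -0.82 for Rnf227, -0.71 for Fbxo45, -0.69 for Ube2n and -0.31 for Ube2a. For the combinations 15 members differed, with 1.25 for Usp3, 1.23 for Fbxo11, 0.99 for Rnf111, 0.95 for Ube2h, 0.79 for Rnf169, -1.02 for Ube2e2, -0.76 for Fbxo45 and -0.50 for Usp34.

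The change at 24 h differed from that at 1 h in 49 members in topotecan/D5W (Rnf213 2.08, Usp24 1.27, Rnf123 -1.88, Fbxo34 -1.55) and in 44 in D5W/topotecan (Fbxo11 1.75, Rnf144a 1.39, Rnf123 -2.07, Rnf227 -2.0). It differed in 26 in oxaliplatin/NaCl (Rnf144a 0.92, Rnf14 0.45, Ube2t -1.52, Rnf227 -1.49) and in 55 in NaCl/oxaliplatin (Rnf144a 0.98, Rnf144b 0.85, Fbxo5 -1.69, Ube2t -1.59). In the combinations it differed in 64 in topotecan/oxaliplatin (Rnf213 3.22, Usp18 2.93, Ube2t -2.27, Fbxo5 -2.07) and in 57 in oxaliplatin/topotecan (Rnf213 2.52, Fbxo11 2.32, Ube2t -2.47, Fbxo5 -2.23).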

How the results depend on the processing

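Quantile normalization kept all 34 counts of called members within 1.5 times their value. Oxaliplatin/NaCl at 1 h had 0 in place of 1 without the dimmest probe sets and 0 with the mean of all probe sets of a gene. With the animal set as a block, the count at 6 h was 14 in place of 8 in oxaliplatin/NaCl and 14 in place of 8 in NaCl/oxaliplatin, and topotecan/oxaliplatin against NaCl/oxaliplatin at 24 h had 26 in place of 17. With all groups in 1 fit, oxaliplatin/NaCl at 6 h had 15 in place of 8. Without the muscle-rich arrays, oxaliplatin/topotecan against oxaliplatin/NaCl at 24 h had 6 in place of 11, and D5W/topotecan against oxaliplatin/NaCl 4 in place of 10. The causes were not tested. Of 110 changes of members past the thresholds of adjusted p and fold, 110 kept their call by adjusted p under quantile normalization and with the mean of probe sets. Without the muscle-rich arrays 109 kept it, the exception being Usp18 in topotecan/oxaliplatin at 6 h (1.34 in place of 1.59). The fold did not count towards this. Usp15 in oxaliplatin/NaCl at 24 h had -0.83 without these arrays, a fold under 2. The values of the 81 members with 1 probe set could not change under the mean of probe sets. The muscle-rich arrays lay only in oxaliplatin/NaCl at 24 h and topotecan/oxaliplatin at 6 h, which held 7 and 4 of the 110 changes. Leaving out 1 rat at a time, the counts against vehicle at 1 h ran from 38 to 43 in topotecan/D5W, 0 to 1 in NaCl/oxaliplatin, 45 to 49 in topotecan/oxaliplatin, 38 to 46 in D5W/topotecan, 0 to 1 in oxaliplatin/NaCl and 49 to 55 in oxaliplatin/topotecan. Those at 6 h ran from 36 to 41 in topotecan/D5W, 6 to 14 in NaCl/oxaliplatin, 39 to 49 in topotecan/oxaliplatin, 32 to 42 in D5W/topotecan, 4 to 10 in oxaliplatin/NaCl and 44 to 53 in oxaliplatin/topotecan. Those at 24 h ran from 38 to 53 in topotecan/D5W, 57 to 64 in NaCl/oxaliplatin, 68 to 72 in topotecan/oxaliplatin, 39 to 50 in D5W/topotecan, 45 to 56 in oxaliplatin/NaCl and 55 to 63 in oxaliplatin/topotecan. For the order of infusion at 1 h they ran from 15 to 21 in topotecan/D5W minus D5W/topotecan and 12 to 17 in topotecan/oxaliplatin minus oxaliplatin/topotecan. For the 24 h change minus the 1 h change they ran from 44 to 50 in topotecan/D5W, 50 to 59 in NaCl/oxaliplatin, 62 to 65 in topotecan/oxaliplatin, 40 to 46 in D5W/topotecan, 21 to 28 in oxaliplatin/NaCl and 52 to 58 in oxaliplatin/topotecan. Between treated groups they ran from 31 to 39 in topotecan/D5W against NaCl/oxaliplatin at 1 h, 15 to 26 in topotecan/oxaliplatin against topotecan/D5W at 24 h, 14 to 19 in topotecan/D5W against NaCl/oxaliplatin at 24 h, 30 to 39 in D5W/topotecan against oxaliplatin/NaCl at 1 h, 5 to 9 in oxaliplatin/topotecan against oxaliplatin/NaCl at 24 h, 4 to 10 in D5W/topotecan against oxaliplatin/NaCl at 24 h, 14 to 21 in topotecan/oxaliplatin against NaCl/oxaliplatin at 24 h and 11 to 19 in oxaliplatin/topotecan against D5W/topotecan at 24 h. The counts moved past 1.5 times without single rats as follows. NaCl/oxaliplatin had 1 without its animal 73 at 1 h and 14 without NaCl/D5W animal 9 at 6 h. Oxaliplatin/NaCl had 0 at 1 h without any 1 rat but its animal 38, and at 6 h 4 without animal 39, 5 without animal 45 and 5 without D5W/NaCl animal 16. Topotecan/oxaliplatin against topotecan/D5W had 15 without topotecan/D5W animal 35. Oxaliplatin/topotecan against oxaliplatin/NaCl had 5 without oxaliplatin/topotecan animal 65 or 72, 6 without oxaliplatin/NaCl animal 47 or 48 and 7 without animal 41. D5W/topotecan against oxaliplatin/NaCl at 24 h had 4 without D5W/topotecan animal 95 and 6 without oxaliplatin/NaCl animal 47. Where a group was left with 2 rats, the spread was taken from all groups of the fit, as in every other comparison. Signal over background could not be judged from these normalised values. The animal set splits the animal numbers of a group into its lower and higher ones, and no label calls it a batch; the block for it is the fit given above. No paired analysis was possible because each rat gave 1 array and animal numbers are not shared between groups.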
